A study of Mus musculus with 9 samples.

Results

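The RNA levels of 49 genes of the early secretory pathway were examined in mouse hearts after myocardial infarction. The genes encode the machinery that targets new proteins to the endoplasmic reticulum (ER), passes them through its membrane, cuts their signal peptides, attaches N-linked glycans and exports them in COPII vesicles. They were listed by gene symbol and known role, with earlier results of these data known. All 49 were among the 25468 genes of the deposited table, and all 49 were among the 13514 genes tested. They fell into 8 roles: 6 genes of the signal recognition particle and its receptor, 6 of the Sec61 translocon and its partners, 4 of the TRAP complex, 5 of signal peptidase, 7 of oligosaccharyltransferase, 10 of the COPII coat and its GTPases, 8 cargo receptors and export factors, and 3 KDEL receptors.

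A protein bound for secretion or for a membrane carries a signal sequence, which the signal recognition particle binds as it leaves the ribosome. The particle docks at its receptor on the ER, and the chain enters the lumen through the Sec61 channel, where signal peptidase removes the signal and oligosaccharyltransferase adds a preformed glycan. Folded cargo is then packed into vesicles coated with COPII, which the GTPase Sar1 starts to assemble, and escaped ER residents are returned from the Golgi by receptors for their KDEL tail. Fibroblasts that make collagen, and plasma cells, are known for a large secretory pathway, whereas heart muscle cells hold most of their ER membrane as sarcoplasmic reticulum for calcium handling.

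Bulk RNA sequencing covered 9 libraries of total RNA from hearts of wild-type mice. In 3 libraries the mice had a sham operation, in 3 the heart was taken 1 day after acute myocardial infarction (AMI), and in 3 it was taken 7 days after AMI. The sources used here give neither the strain, age and sex of the mice nor the part of the heart, and the sham hearts have no day. Both times were compared with these 3 sham libraries, so their comparisons share controls. Whether the 3 libraries of a group represent different animals is not in the labels, so the tests weigh differences only against the spread among these libraries, some of which may be technical. Mice lacking Hdc, which the series also describes, were not analysed here.

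Levels are in FPKM, fragments scaled to transcript length and library size, summed over the transcripts of a gene. FPKM summed to 521643 to 792632 per library, and mitochondrially encoded genes took 24.4% to 39.8% of it. The number of reads behind a value is unknown. The defining muscle gene Myh6 was at 2920 FPKM or more in each library, as the label heart calls for. The summed FPKM of 8 cardiomyocyte markers was 30500 to 33200 in sham, 15700 to 19400 at day 1 and 12400 to 21900 at day 7. The summed FPKM of 8 activated fibroblast markers was 485 to 747 in sham, 1670 to 1900 at day 1 and 4100 to 6880 at day 7. Neutrophil markers summed to 46.6 to 63.4 FPKM in sham, 112 to 303 at day 1 and 28.1 to 68.4 at day 7. Macrophage markers summed to 313 to 596, 509 to 791 and 787 to 1020 FPKM in the same order, and plasma and B cell markers to 2.73 to 7.8, 13.3 to 37 and 18.4 to 58.7 FPKM. Atrial markers differed within the groups, from 229 to 2680 FPKM in sham, 281 to 10900 at day 1 and 771 to 5400 at day 7. The 4 markers of airway epithelium summed to 241 FPKM in sham replicate 1 and 1520 FPKM in day 1 replicate 2, and to at most 18.9 FPKM elsewhere. Adipocyte markers were uneven too, at 451, 4.1 and 2.11 FPKM in the sham group and 0.95 to 101 FPKM at day 1. T cell markers summed to 52.2 FPKM in day 7 replicate 2 and to at most 10.3 FPKM elsewhere. In bulk tissue, fewer cells of a type and less RNA per cell cannot be told apart, and the part of these shifts in the results below was not tested.

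At day 1 after AMI the pathway's RNA rose in many but not all of its steps. Of the 49 genes, 24 rose and 2 fell against sham, and 23 did not pass the test (limma, adjusted p under 0.05). Among all genes tested, 13.4% were called higher and 14.7% lower in this comparison. The median log2 fold change of the 49 genes was 0.27, against -0.01 over all genes tested, and single values ran from -0.68 in Sar1b to 1.18 in Kdelr3. At day 7, 12 of the 49 were higher than sham, 3 were lower and 34 did not pass, beside a background of 15.7% higher and 17.3% lower among all genes tested. Their median was then 0.12, against -0.02 over all genes. The 49 genes together summed to 1774 to 1835 FPKM in the sham group, 2042 to 2323 at day 1 and 1785 to 2029 at day 7. The sham and day 1 ranges did not overlap, and the day 7 range reached into the sham range. Rescaling to a common total (TPM) moved the median of all genes to 0.23 at day 1 and 0.30 at day 7 and that of the 49 genes to 0.54 and 0.47, and then 29 and 27 of the 49 rose. On that scale 80.3% and 87.8% of all calls were higher, against 47.7% and 47.6% in FPKM.

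The roles differed in how many of their genes moved. Higher at day 1 were 4 of 4 TRAP genes, 6 of 7 oligosaccharyltransferase genes, 3 of 6 translocon genes, 2 of 3 KDEL receptors, 4 of 8 cargo receptors, 2 of 5 signal peptidase genes and 3 of 10 COPII genes. Of the 6 signal recognition particle genes 0 rose by limma, with 0 also at an unadjusted p under 0.05. The differences between roles were not tested, because the roles are lists of genes and not replicates.

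**Figure D1:**
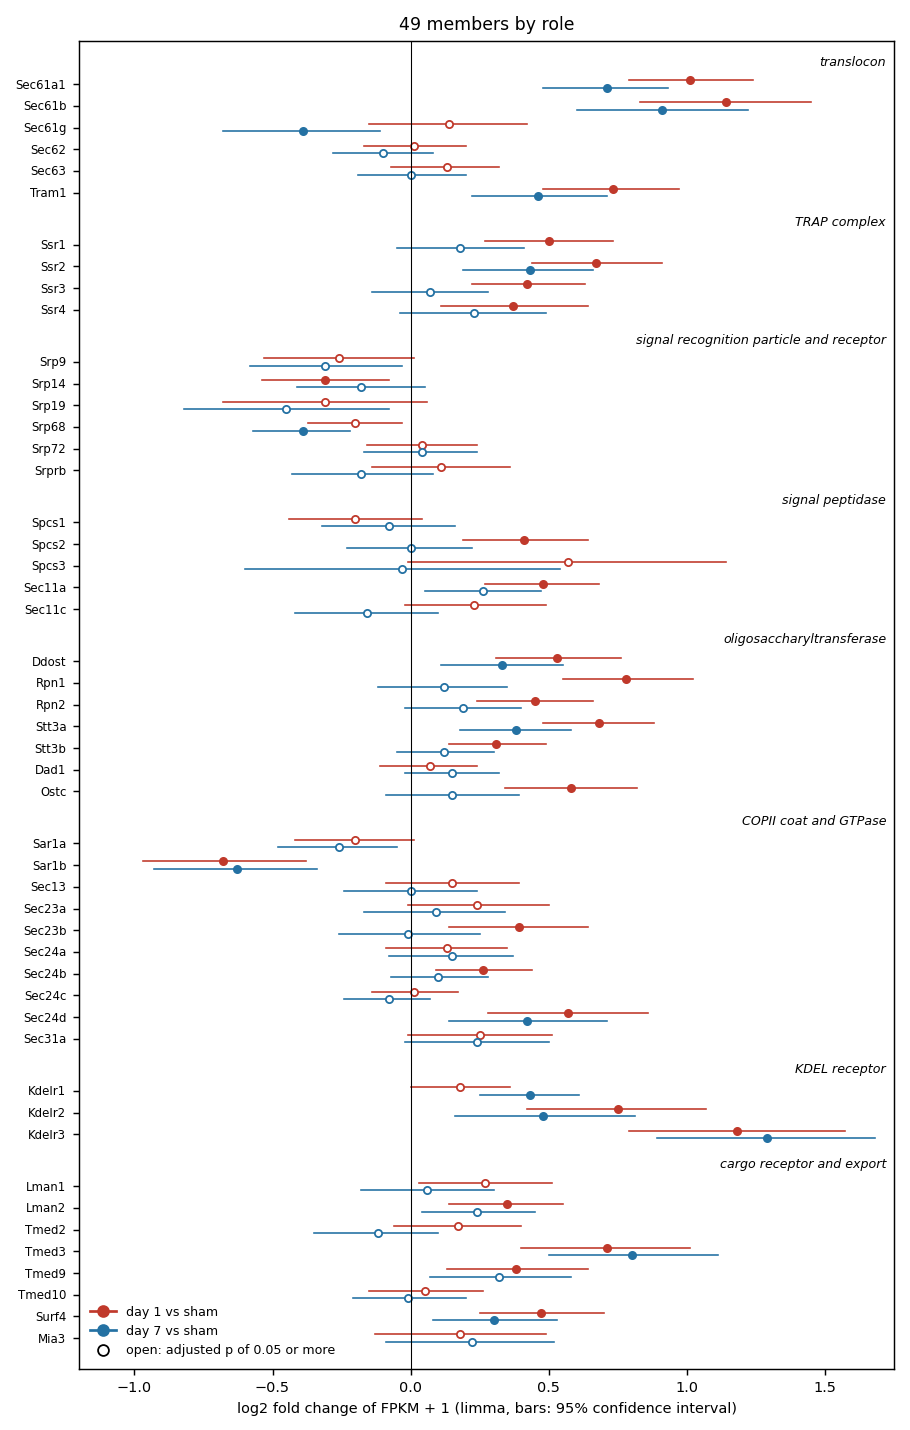
Log2 fold change of FPKM + 1 (horizontal axis) for the 49 genes, grouped by role, at day 1 (red) and day 7 (blue) against the same 3 sham libraries. Points are limma estimates and bars their 95% confidence intervals; filled points passed an adjusted p of 0.05. The points of the TRAP and oligosaccharyltransferase genes lie right of 0 at day 1, while Sar1b lies left of 0 at both times.

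Several of these calls rest on few libraries. When each of the 9 libraries was left out in turn, 17 of the 24 rises at day 1 passed in every fit, and 1 of the 2 falls, that of Sar1b. At day 7, 7 of the 12 rises and 2 of the 3 falls did so, and the rises numbered 7 without sham replicate 1 and 7 without sham replicate 2. Without both libraries that carried airway markers, which leaves 2 sham and 2 day 1 libraries, 4 rises passed at day 1 (Sec61a1, Sec61b, Stt3a and Kdelr3) and 5 at day 7 (Sec61a1, Sec61b, Kdelr1, Kdelr3 and Tmed3). The calls over all genes tested went the same way, from 1817 to 256 higher at day 1 and from 2127 to 1078 at day 7. The median log2 fold change of the 49 genes was then 0.32 at day 1, with 41 of 49 above 0, and 0.09 at day 7. Day 7 replicate 1 was the highest library of its group in 39 of the 49 genes, against 37% of all genes tested, and without it 8 rises passed at day 7 and the median of the 49 genes was 0.05. It also had the highest summed FPKM of the fibroblast markers (6880) and the lowest of the cardiomyocyte markers (12400), and the part of this in its values was not tested. At day 1, replicate 3 was the highest of its group in 42 of the 49 genes, against 46.7% of all genes tested.

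The signal recognition particle and its receptor stand at the first step, and 0 of their 6 genes were called higher in FPKM at either time. The particle is built of an RNA and several proteins, of which Srp9 and Srp14 form the part that slows translation and Srp68 and Srp72 form a heterodimer on the RNA. Srp14 was at 73.9, 85 and 74.3 FPKM in the sham group, 57.8, 61.2 and 68.7 on day 1 and 72.5, 66.7 and 66.3 on day 7. Its day 1 libraries all lay below sham (log2 fold change -0.31, SE 0.10, adjusted p = 0.0472), but the call was lost in 16 of 24 alternatives, and with TPM the change was -0.03 at day 1 and 0.18 at day 7. Srp68 was at 27.9, 30.7 and 27 FPKM in the sham group, 24.7, 23.8 and 25.6 on day 1 and 21, 21.8 and 21.6 on day 7. The groups did not overlap, and the fall at day 7 passed (log2 fold change -0.39, SE 0.08, adjusted p = 0.0086) when each library was left out in turn, though with TPM it was -0.05 and the day 1 difference 0.07.

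The other 4 genes of this step did not pass at either time. Srp9 and Srp19 had log2 fold changes of -0.26 and -0.31 at day 1 and of -0.31 and -0.45 at day 7. Srp72 was at 0.04 in both comparisons, with 95% intervals of -0.16 to 0.24 and -0.17 to 0.24. Srprb, the membrane-bound subunit of the receptor, was at 0.11 and -0.18, and its reads may include those of an overlapping gene model on the same strand. The 6 genes summed to 224 to 245 FPKM in the sham group, 180 to 227 at day 1 and 183 to 198 at day 7. With TPM the median of these genes was 0.04 at day 1 and 0.10 at day 7, against medians of 0.23 and 0.30 over all genes on that scale. With TPM without mitochondrial genes, 1 of the 6 was called higher at day 1, and their median was -0.01 against 0.20 over all genes.

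The Sec61 channel is a trimer of the pore-forming Sec61a1 with the small subunits Sec61b and Sec61g, and their RNAs did not move together. Sec61a1 was at 15.5, 16.6 and 16.4 FPKM in the sham group, 32.7, 34.3 and 33.9 on day 1 and 31.5, 25.4 and 24.5 on day 7. The lowest infarct library thus stood well above the highest sham library at both times, with log2 fold changes of 1.01 (SE 0.10, adjusted p = 0.0013) and 0.71 (SE 0.10, adjusted p = 0.0035). Sec61b was at 30.6, 29 and 31.5 FPKM in the sham group, 56.9, 71.2 and 77.8 on day 1 and 57.8, 66.3 and 50.6 on day 7. It rose by 1.14 (SE 0.14, adjusted p = 0.00229) and 0.91 (SE 0.14, adjusted p = 0.00418) on the log2 scale.

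Sec61g followed another course. It was at 155, 119 and 145 FPKM in the sham group, 139, 153 and 167 on day 1 and 103, 113 and 100 on day 7. Sham and day 1 overlapped (log2 fold change 0.14, 95% interval -0.15 to 0.42), while day 7 lay below sham (log2 fold change -0.39, SE 0.12, adjusted p = 0.0407). That fall was lost when 1 of 6 libraries was left out, namely sham replicate 1 or 3, day 1 replicate 2 or any day 7 library, with an adjusted p of up to 0.128, and it was -0.04 with TPM. Sec61g and Sec61b each have processed pseudogenes of near-identical sequence, so reads may be shared with these copies.

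The partners of the channel were split as well. Tram1, a membrane protein that helps nascent chains into the bilayer, was at 22.8, 25.4 and 25.3 FPKM in the sham group, 38, 40.1 and 45.9 on day 1 and 38.4, 32.9 and 31.4 on day 7. It rose at both times, by 0.73 (SE 0.11, adjusted p = 0.00382) and 0.46 (SE 0.11, adjusted p = 0.0144) on the log2 scale. Sec62 and Sec63, which serve the entry of chains after their synthesis together with the chaperone BiP, did not pass at either time. Sec62 ranged from 24.5 to 29.8 FPKM over the 9 libraries, and its day 1 difference was 0.01 (95% interval -0.17 to 0.20). Sec63 was at 13.9, 15.6 and 13.4 FPKM in the sham group, 15.8, 15 and 16.4 on day 1 and 15.5, 14.2 and 13.4 on day 7, and was among the 3 genes with the smallest difference at day 7 (95% interval -0.19 to 0.20).

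**Figure D2:**
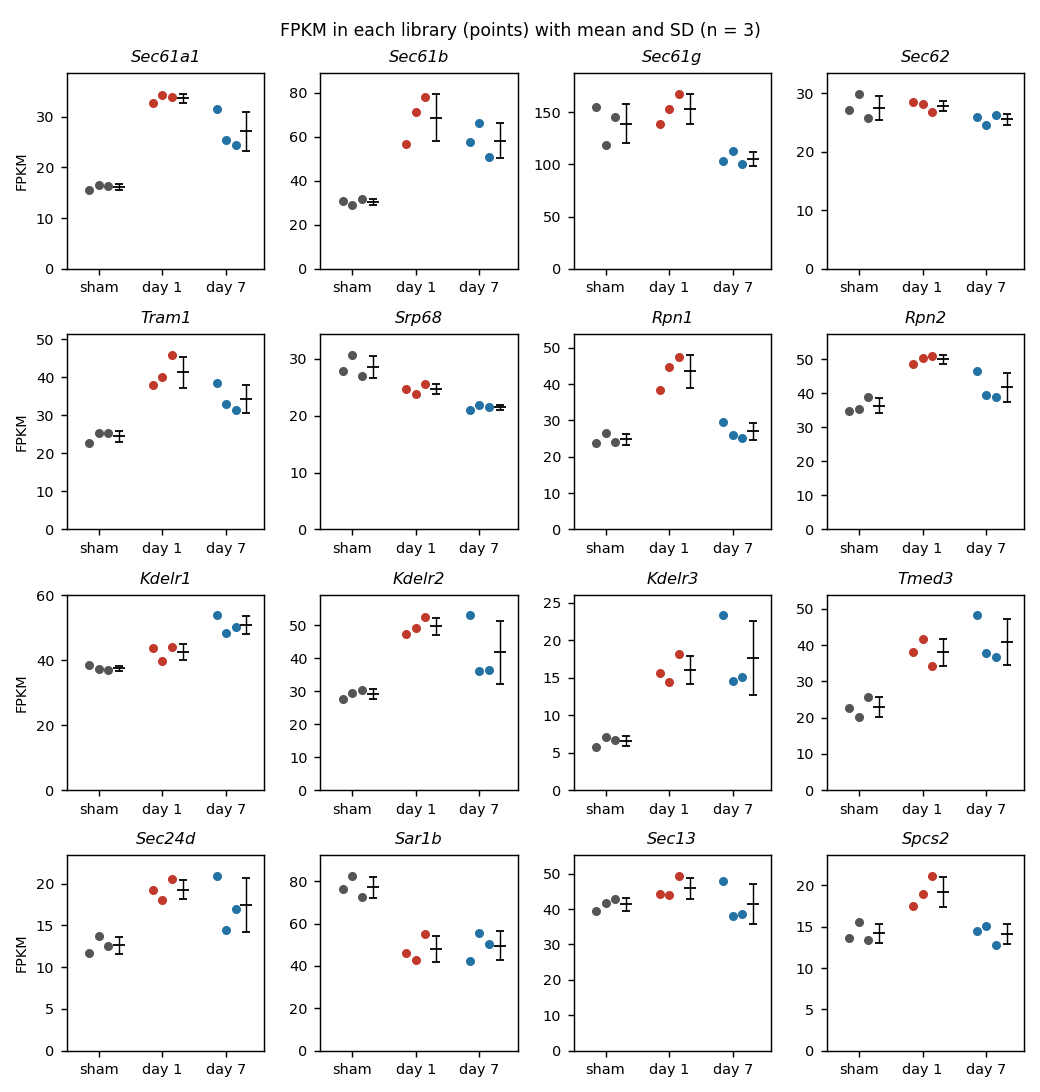
FPKM (vertical axes, from 0) of 16 of the genes in each library; grey, red and blue points are sham, day 1 and day 7, and the black marks are the mean with SD of 3 libraries. Sec61a1 and Sec61b stand above sham at both times, Sec61g and Sec62 overlap sham at day 1, and Rpn1 stands above sham at day 1 and overlaps it at day 7.

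The TRAP complex binds the Sec61 channel and aids the entry of some signal sequences, and its 4 genes rose at day 1. Ssr2 was at 35.3, 34 and 37.7 FPKM in the sham group, 52.6, 57.2 and 62.9 on day 1 and 53.7, 47.7 and 43.7 on day 7. It was the TRAP gene with the largest rise at day 1 (0.67, SE 0.10, adjusted p = 0.0044) and the one that passed at day 7 (0.43, SE 0.10, adjusted p = 0.0177). Ssr1, Ssr3 and Ssr4 rose at day 1 by 0.50, 0.42 and 0.37 on the log2 scale (adjusted p = 0.00949, 0.0121 and 0.0432), and none of their sham libraries reached a day 1 library. The Ssr4 call was lost without any 1 of the sham or day 1 libraries, or without day 7 replicate 2, with an adjusted p of up to 0.139. At day 7 the Ssr2 call was lost without sham replicate 1 or 2 or day 7 replicate 1 (adjusted p of up to 0.0638). Ssr2 has a near-identical stretch in Rtraf, in the opposite orientation, so reads may be shared. The 4 genes summed to 161 to 182 FPKM in the sham group, 230 to 255 at day 1 and 185 to 213 at day 7.

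Signal peptidase has the catalytic subunit in alternative forms, Sec11a and Sec11c, beside the accessory subunits Spcs1, Spcs2 and Spcs3. Sec11a was at 17.7, 16.1 and 15 FPKM in the sham group, 20.9, 24.6 and 23.6 on day 1 and 20.1, 20.2 and 18.7 on day 7. It rose at day 1 (0.48, SE 0.09, adjusted p = 0.00867), and at day 7 the groups still did not overlap but the difference of 0.26 missed the threshold (adjusted p = 0.0553). Part of its reads may belong to Nmb, which overlaps it on the same strand and had a mean of 2.87 FPKM. Sec11c was at 30.1, 24.9 and 27.3 FPKM in the sham group, 29.4, 31.6 and 36.4 on day 1 and 24.9, 26.6 and 22 on day 7, with overlap at both times. Its differences of 0.23 and -0.16 did not pass (adjusted p = 0.154 and 0.31).

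Spcs2 passed at day 1 and not at day 7. It was at 13.6, 15.5 and 13.4 FPKM in the sham group, 17.5, 19 and 21.1 on day 1 and 14.5, 15.1 and 12.8 on day 7. The rise at day 1 was 0.41 (SE 0.10, adjusted p = 0.0181), and the day 7 difference was within -0.23 to 0.22 (95% interval). The rise was lost without sham replicate 1, sham replicate 3 or day 1 replicate 2 (adjusted p of up to 0.0591). Spcs2 has a near-identical pseudogene, with which reads may be shared. Spcs3 had the largest SE of the 49 genes, with 40.4, 34.5 and 69.6 FPKM at day 1, and did not pass (log2 fold change 0.57, SE 0.25, adjusted p = 0.124). Spcs1 did not pass either, at -0.20 and -0.08.

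Oligosaccharyltransferase transfers the glycan to asparagine. Its catalytic subunit is Stt3a in the complex that works at the channel and Stt3b in the one that also reaches finished chains, while Rpn1, Rpn2, Ddost and Dad1 are shared subunits and Ostc is found in the Stt3a complex. Stt3a was at 11.9, 13.3 and 12.3 FPKM in the sham group, 20.5, 20.4 and 20.7 on day 1 and 18.6, 15.4 and 15.6 on day 7. The day 1 libraries differed among themselves by 0.3 FPKM and stood far from sham (log2 fold change 0.68, SE 0.09, adjusted p = 0.00281), and day 7 was higher too (0.38, SE 0.09, adjusted p = 0.0148). Stt3b was at 22.2, 23.1 and 22.6 FPKM in the sham group, 27.5, 27.7 and 30.1 on day 1 and 26.6, 23.9 and 23.8 on day 7. Its rise at day 1 was 0.31 (SE 0.08, adjusted p = 0.0197), and at day 7 it did not pass (0.12, adjusted p = 0.246). The day 1 call was lost without any 1 sham library or day 1 replicate 2 (adjusted p of up to 0.0623). Stt3a was 35.5% ± 0.9 (SD, n = 3) of the summed FPKM of both genes in sham, 42% ± 1.04 at day 1 and 40% ± 0.979 at day 7.

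Rpn1 had the largest change in the complex, called at day 1 and not at day 7. It was at 23.8, 26.6 and 24 FPKM in the sham group, 38.5, 44.7 and 47.4 on day 1 and 29.6, 26.1 and 25.3 on day 7. The rise at day 1 was 0.78 (SE 0.10, adjusted p = 0.00292), while at day 7 its libraries overlapped sham (0.12, 95% interval -0.12 to 0.35). Ostc was at 46.4, 48.1 and 51.2 FPKM in the sham group against 66.4, 72.4 and 80.7 on day 1 (0.58, SE 0.11, adjusted p = 0.00745), with 59.3, 54.4 and 48.7 at day 7. Ddost rose at both times (0.53 and 0.33, adjusted p = 0.00729 and 0.0331), the later call being lost without sham replicate 1 or 2 or day 7 replicate 1 (adjusted p of up to 0.101). Dad1, a small subunit named for the cell death seen in its absence, did not pass at either time, at 0.07 (95% interval -0.11 to 0.24) and 0.15 (95% interval -0.02 to 0.32). The 7 genes summed to 200 to 214 FPKM in the sham group, 277 to 311 at day 1 and 226 to 261 at day 7.

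Rpn2 encodes a shared subunit, and its transcript entries in the table changed their proportion. The gene was at 34.9, 35.5 and 38.9 FPKM in the sham group against 48.5, 50.5 and 51 on day 1 (log2 fold change 0.45, SE 0.09, adjusted p = 0.0109), and at 46.7, 39.6 and 39 at day 7 (0.19, adjusted p = 0.143). It has 2 transcript entries, whose coding parts differ in an exon each by the GENCODE M21 models: ENSMUST00000029171 of 615 codons holds a coding exon of 48 bases as its exon 16 (chr2:157323223-157323270, GRCm38, + strand), and ENSMUST00000116380 of 631 codons holds a coding exon of 96 bases as its exon 3 (chr2:157289528-157289623, GRCm38, + strand). Both exons are a whole number of codons long. The models also differ outside the coding part, with 2621 bases in all for the first and 2756 for the second.
Rpn2 exon 16 of ENSMUST00000029171: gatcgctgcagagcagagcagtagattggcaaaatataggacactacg
Rpn2 exon 3 of ENSMUST00000116380: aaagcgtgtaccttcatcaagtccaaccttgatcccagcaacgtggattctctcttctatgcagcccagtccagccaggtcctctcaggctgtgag

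The entry with the 48-base exon made up 20.4%, 21.1% and 20.2% of Rpn2 FPKM in the sham group, 11.4%, 6.55% and 10.7% at day 1 and 6.61%, 8.36% and 8.67% at day 7. The sham libraries lay close together and above the infarct libraries. The other entry thus carried the gene's rise, from 27.8, 28 and 31 FPKM in sham to 42.9, 47.2 and 45.5 at day 1, while the entry with the 48-base exon went from 7.1, 7.5 and 7.84 FPKM to 5.55, 3.31 and 5.44. Shares between transcripts are estimates by the authors' pipeline, and the tool that split reads among transcripts is not named in the labels. Of the 49 genes, 27 had 2 or more transcript entries, and only Rpn2 and Tmed2, chosen after the shares had been seen, are described. Reads over the 48-base exon itself were not counted here, and the shares were looked at as a description, without a test.

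The COPII coat is made of an inner layer of Sec23 and Sec24, of which Sec24 binds cargo, and an outer cage of Sec13 and Sec31, and Sar1 recruits it. Its RNAs moved in different directions. Sec24d was at 11.7, 13.7 and 12.5 FPKM in the sham group, 19.3, 18.1 and 20.5 on day 1 and 20.9, 14.5 and 17 on day 7. Its libraries stood above sham at both times (0.57, SE 0.13, adjusted p = 0.0136, and 0.42, SE 0.13, adjusted p = 0.0339), and the later call was lost without any 1 sham library or without day 7 replicate 1 or 3 (adjusted p of up to 0.0994). Sec24b was at 11.1, 11.5 and 12.1 FPKM in the sham group, 13.6, 14.3 and 14.5 on day 1 and 13.6, 11.9 and 12.1 on day 7. It rose at day 1 by 0.26 (SE 0.08, adjusted p = 0.0336), a call lost without any 1 of the 6 libraries compared (adjusted p of up to 0.104).

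The remaining Sec24 genes did not pass. Sec24a was at 7.42, 8.29 and 6.64 FPKM in the sham group, 8.82, 7.89 and 7.99 on day 1 and 8.99, 7.55 and 8.47 on day 7, and Sec24c was at 17.6, 18 and 18.5, then 17.8, 17.9 and 19, then 16.8, 16.5 and 17.6. For Sec24c the 95% intervals of the log2 fold change were -0.14 to 0.17 at day 1 and -0.24 to 0.07 at day 7. The mix of the family differed between the groups, as a description without a test: Sec24d made up 25.4% ± 1.1 (SD, n = 3) of Sec24 FPKM in the sham group, 32.2% ± 0.958 at day 1 and 31.4% ± 3.03 at day 7, and Sec24c 36.3% ± 1.18, 30.4% ± 0.483 and 30.8% ± 2.63. Sec24c and Sec24d are the more closely related pair of Sec24 proteins, and Sec24a and Sec24b the other.

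Sar1b fell at both times, unlike most of the genes called. It was at 76.4, 82.4 and 72.5 FPKM in the sham group, 46.1, 43 and 55 on day 1 and 42.4, 55.8 and 50.5 on day 7. No infarct library reached a sham library, and the log2 fold changes were -0.68 (SE 0.13, adjusted p = 0.00861) and -0.63 (SE 0.13, adjusted p = 0.00989). With TPM the fall was -0.40 (adjusted p = 0.0206) at day 1 and -0.28 (adjusted p = 0.0555) at day 7. Sar1a was at 58.4, 65.1 and 60.7 FPKM in the sham group, 53.8, 49.9 and 55.8 on day 1 and 56.6, 47.9 and 48.8 on day 7, which did not pass (-0.20 and -0.26, adjusted p = 0.138 and 0.0608). SAR1B is known in humans as the gene of chylomicron retention disease, in which lipoprotein export from the gut fails. Beside this fall, cardiomyocyte marker FPKM dropped over the same groups, and whether the one accounts for the other was not tested.

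In the rest of the coat, Sec23b was the gene that passed. It was at 9.91, 10.3 and 8.48 FPKM in the sham group, 11.6, 12.9 and 14.1 on day 1 and 10.8, 9.29 and 8.57 on day 7, a rise of 0.39 at day 1 (SE 0.11, adjusted p = 0.0321) that was lost without any 1 sham library, day 1 replicate 2 or day 1 replicate 3 (adjusted p of up to 0.103). Sec23a was at 18.2, 18.7 and 18.1 FPKM in the sham group, 23.2, 19.6 and 23.2 on day 1 and 22.9, 17.2 and 18.9 on day 7, and did not pass (adjusted p = 0.138 and 0.582). Sec13, at 39.4, 41.8 and 42.8 FPKM in the sham group, 44.3, 44 and 49.3 on day 1 and 48, 38 and 38.6 on day 7, had the smallest difference of the 49 genes at day 7 (95% interval -0.24 to 0.24). Sec31a had 0.25 and 0.24 (adjusted p = 0.129 and 0.132). The 10 genes summed to 289 to 315 FPKM in the sham group, 274 to 305 at day 1 and 263 to 295 at day 7, ranges that overlap.

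The cargo receptors bind selected proteins and carry them into COPII vesicles. Tmed3, a member of the p24 family, was at 22.8, 20.2 and 25.8 FPKM in the sham group, 38, 41.8 and 34.2 on day 1 and 48.2, 37.9 and 36.7 on day 7. It rose at both times (0.71, SE 0.13, adjusted p = 0.0086, and 0.80, SE 0.13, adjusted p = 0.00579), and no infarct library overlapped sham. The p24 gene Tmed9 was at 34.9, 38 and 37.1 FPKM in the sham group, 43.7, 44.9 and 56.8 on day 1 and 50, 44.5 and 44.2 on day 7. Its rise at day 1 was 0.38 (SE 0.11, adjusted p = 0.036), lost without any 1 sham library, day 1 replicate 2 or 3 or day 7 replicate 2 (adjusted p of up to 0.105), and 0.32 at day 7 did not pass (adjusted p = 0.056).

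The more abundant p24 genes overlapped sham. Tmed2 was at 119, 131 and 126 FPKM in the sham group, 142, 129 and 153 on day 1 and 123, 107 and 115 on day 7 (adjusted p = 0.235 and 0.361). Tmed10 was at 42.4, 48.5 and 47 FPKM in the sham group, 46.8, 47.3 and 49 on day 1 and 49.5, 42.3 and 45.6 on day 7 (adjusted p = 0.687 and 0.962). Tmed3 was thus 9.95% ± 1.28 (SD, n = 3) of the FPKM of these 4 genes in sham, 13.9% ± 2.11 at day 1 and 16.4% ± 1.31 at day 7. Both Tmed2 and Tmed10 have near-identical pseudogenes, with which reads may be shared.

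Tmed2 also differed in its transcript entries. ENSMUST00000135464, a model with 112 codons against 201 in ENSMUST00000060226, made up 39%, 42% and 39.4% of the gene's FPKM in the sham group, 25.4%, 23.7% and 22.2% at day 1 and 17.7%, 22.6% and 26.5% at day 7. The sham range lay above that of the infarct libraries, and the longer model went from 70.4, 75.5 and 70.5 FPKM in sham to 88.8, 90.3 and 112 at day 1 and 99.8, 78.6 and 80.6 at day 7. The remaining entry, ENSMUST00000124529, made up 1.81%, 0.36% and 4.7% in the sham group, 12.1%, 6.31% and 4.5% at day 1 and 1.03%, 4.04% and 3.58% at day 7. The gene's summed FPKM overlapped between the groups while its entries were in another proportion, a difference that was not tested.

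**Figure D3:**
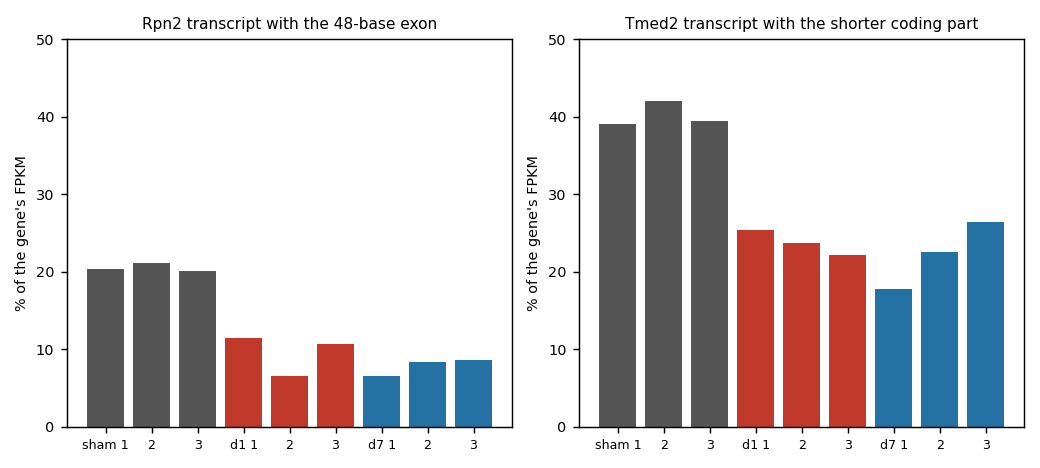
Share of the gene's FPKM (vertical axes, percent, from 0) taken by 1 transcript entry of Rpn2 and 1 of Tmed2 in each of the 9 libraries (grey sham, red day 1, blue day 7). The Rpn2 entry with the 48-base exon lies between 20.2% and 21.1% in the sham libraries and reaches at most 11.4% after AMI. The Tmed2 entry with the shortest coding part lies between 39% and 42% in sham and reaches at most 26.5% after AMI.

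Among the other export receptors, Surf4, which carries soluble cargo, was at 30.6, 32.9 and 36.2 FPKM in the sham group, 45, 45.2 and 49 on day 1 and 45.8, 38.8 and 39.1 on day 7. It rose at both times (0.47 and 0.30, adjusted p = 0.0112 and 0.0447), the later call being lost without sham replicate 1 or 2, day 1 replicate 1 or 2 or any 1 day 7 library (adjusted p of up to 0.137). Lman2, a lectin for glycosylated cargo, was at 13.5, 15 and 13.8 FPKM in the sham group, 16.4, 18.8 and 19.5 on day 1 and 18.1, 16.8 and 15.8 on day 7, a rise of 0.35 at day 1 (SE 0.09, adjusted p = 0.0228). That call was lost without sham replicate 1, sham replicate 3 or day 1 replicate 2 (adjusted p of up to 0.0809). Its relative Lman1, which exports clotting factors, was at 32.4, 40.1 and 35.8 FPKM in the sham group, 43.7, 42.8 and 44.1 on day 1 and 41.9, 33.8 and 37.6 on day 7. For Lman1, 0.27 at day 1 did not pass (adjusted p = 0.0903). Mia3 encodes TANGO1, the exit site protein through which procollagen is exported, and had 66, 78 and 60.3 FPKM in the sham group, 77.7, 69.5 and 84.2 on day 1 and 86.7, 83.3 and 67.8 on day 7. Its groups overlapped, with 0.18 (95% interval -0.13 to 0.49) and 0.22 (95% interval -0.09 to 0.52).

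The KDEL receptors return ER residents from the Golgi, and each of their 3 genes was called higher at 1 time or both. Kdelr3, the lowest of them, was at 5.74, 7.06 and 6.68 FPKM in the sham group, 15.6, 14.4 and 18.1 on day 1 and 23.3, 14.6 and 15.1 on day 7. These were the largest log2 fold changes of the 49 genes at either time, 1.18 (SE 0.17, adjusted p = 0.00381) and 1.29 (SE 0.17, adjusted p = 0.00292), and they passed under each of the 24 alternatives. Kdelr3 shares exon sequence on the opposite strand with Ddx17, which had a mean of 42 FPKM. Counting by strand is not stated, so part of its reads may belong to Ddx17.

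Kdelr2 passed at both times and Kdelr1 at day 7. Kdelr2 was at 27.7, 29.4 and 30.5 FPKM in the sham group, 47.3, 49.1 and 52.6 on day 1 and 53, 36 and 36.5 on day 7. It was higher at day 1 (0.75, SE 0.14, adjusted p = 0.00861) and at day 7 (0.48, SE 0.14, adjusted p = 0.033), the later call being lost without any 1 of the sham libraries (adjusted p of up to 0.0913). Kdelr1 was at 38.4, 37.2 and 36.9 FPKM in the sham group, 43.9, 39.8 and 44.2 on day 1 and 53.8, 48.4 and 50.4 on day 7. Its groups stood in steps without overlap, but the day 1 difference of 0.18 did not pass (adjusted p = 0.125), while that at day 7 did (0.43, SE 0.08, adjusted p = 0.00792). The difference between day 7 and day 1 was 0.25 (adjusted p = 0.113), so a later rise of Kdelr1 is not shown. Kdelr3 made up 8.87% ± 0.808 (SD, n = 3) of the FPKM of the 3 genes in sham, 14.7% ± 0.91 at day 1 and 15.8% ± 1.83 at day 7.

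**Figure D4:**
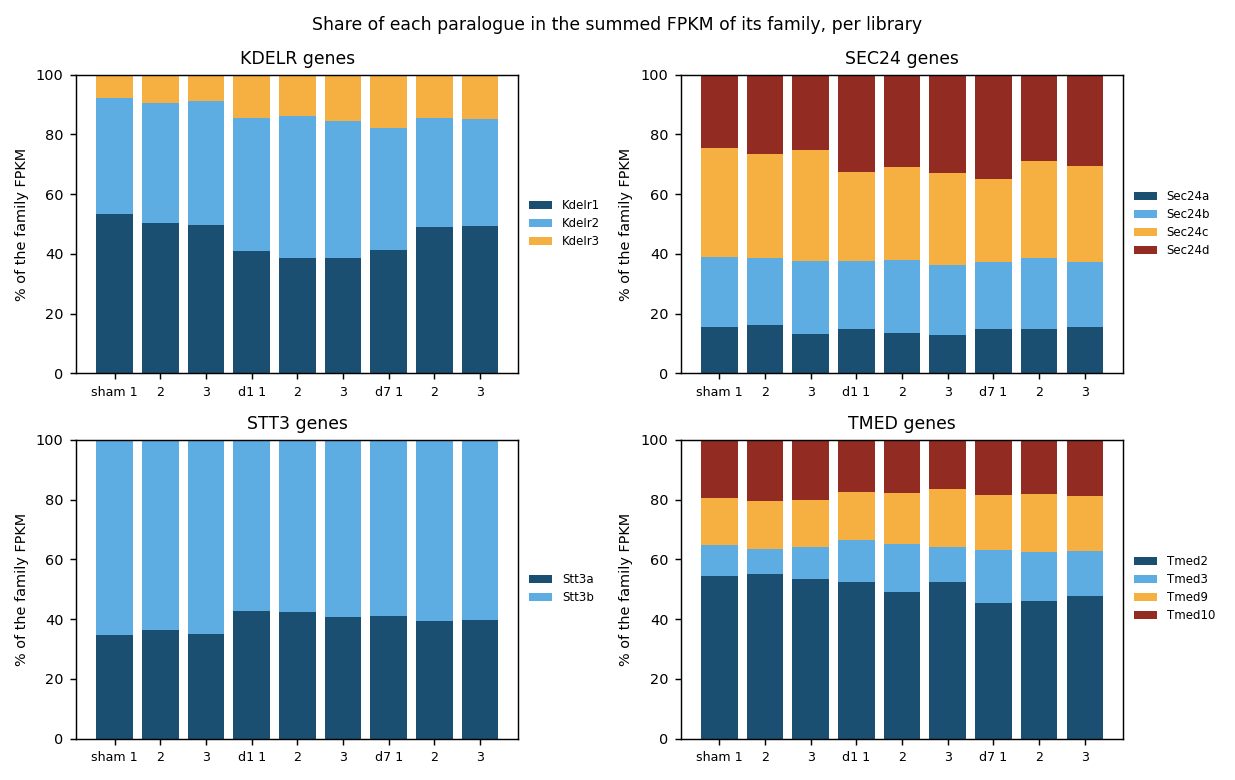
Share of each paralogue (vertical axes, percent) in the summed FPKM of the KDEL receptor, Sec24, Stt3 and p24 (Tmed) genes, with 1 bar per library (sham, d1 for day 1, d7 for day 7). Kdelr3, Sec24d, Stt3a and Tmed3 take a larger mean share at day 1 and day 7 than in sham.

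Promoter sequences were matched for 38 of the 49 genes, from RefSeq on GRCm38.p6, as windows from 250 bases before to 50 bases after the start of transcription. Kdelr2, Lman1, Ostc, Sec11c, Sec61a1, Spcs3, Srp19, Srp68, Ssr2, Tmed2 and Tram1 were not matched. The windows were searched on both strands for motifs of the unfolded protein response, the program by which ER stress raises secretory genes through the transcription factors ATF6 and XBP1. The core of the unfolded protein response element, TGACGTGG, was present in 3 of 38 genes (7.89%), against 0.714% of all 27025 genes with a promoter window. Those 27025 genes were not limited to the genes tested here, so the 2 shares are of unlike sets. The 3 were Kdelr3, Sec23a and Sec24d, of which Kdelr3 and Sec24d were called higher at day 1, beside 24 of all 49 genes. The ER stress element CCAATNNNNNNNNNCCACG was in 0 of 38 and in 0.137% of all genes, and the ER stress element II, ATTGGNCCACG, was in 0 of 38 and in 0.0444%. The reverse complement of the core begins with the CCACG in which both of the other motifs end.

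The windows of the 3 genes with the core are shown from 130 bases before the start site to 20 bases from it, 5′ to 3′ on the strand of the gene, with the core in capitals. They are at chr15:79516278-79516427 (+ strand) for Kdelr3, chr12:59011998-59012147 (- strand) for Sec23a and chr3:123267366-123267515 (+ strand) for Sec24d, on GRCm38.p6. The match in Kdelr3 is on the opposite strand. A match describes these letters and does not show binding.
Kdelr3: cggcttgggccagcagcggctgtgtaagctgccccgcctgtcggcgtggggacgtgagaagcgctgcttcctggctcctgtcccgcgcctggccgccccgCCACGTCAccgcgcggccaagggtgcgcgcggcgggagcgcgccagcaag
Sec23a: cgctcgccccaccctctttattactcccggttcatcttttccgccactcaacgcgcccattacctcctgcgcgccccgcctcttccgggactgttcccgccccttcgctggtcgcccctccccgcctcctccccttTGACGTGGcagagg
Sec24d: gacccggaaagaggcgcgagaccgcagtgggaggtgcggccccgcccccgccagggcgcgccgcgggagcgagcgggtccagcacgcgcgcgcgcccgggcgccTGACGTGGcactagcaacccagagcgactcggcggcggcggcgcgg

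Ratios between genes of a library do not depend on how the library is scaled, and they describe the proportions of pairs of genes. They were chosen after the values had been seen and carry no test. Sec61a1 was itself called higher at both times, so a gene that stayed level falls against it. Sec61g FPKM was 10, 7.12 and 8.87 times that of Sec61a1 in the sham libraries, 4.24, 4.45 and 4.92 times at day 1 and 3.26, 4.45 and 4.09 times at day 7. The ratio of Srp14 to Sec61a1 went from 4.78, 5.11 and 4.54 in sham to 1.77, 1.78 and 2.02 at day 1 and 2.3, 2.63 and 2.7 at day 7. By contrast, Sec61b to Sec61a1 stayed within 1.74 to 2.61 over the 9 libraries, with overlap between the groups. Srp14 and Sec61a1 were thus in another proportion after AMI than in sham, while the ratios of Sec61b to Sec61a1 overlapped between the groups. Ratios of targeting genes to Sec61g were not taken.

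In the glycosylation and export steps similar shifts appeared. Dad1 to Stt3a was 2.76, 2.62 and 2.65 in sham, 1.64, 1.69 and 1.78 on day 1 and 2.07, 2.29 and 2.4 at day 7. Rpn1 to Rpn2 was 0.682, 0.749 and 0.618 in sham, 0.794, 0.885 and 0.93 on day 1 and 0.633, 0.659 and 0.648 at day 7, back within the sham range. Sar1b to Sar1a was 1.31, 1.27 and 1.19 in sham and 0.857, 0.861 and 0.987 at day 1. At day 7 it was 0.749, 1.16 and 1.04, so the GTPase that was the higher of the pair in the sham libraries was the lower one in the day 1 libraries and in day 7 replicate 1.

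**Figure D5:**
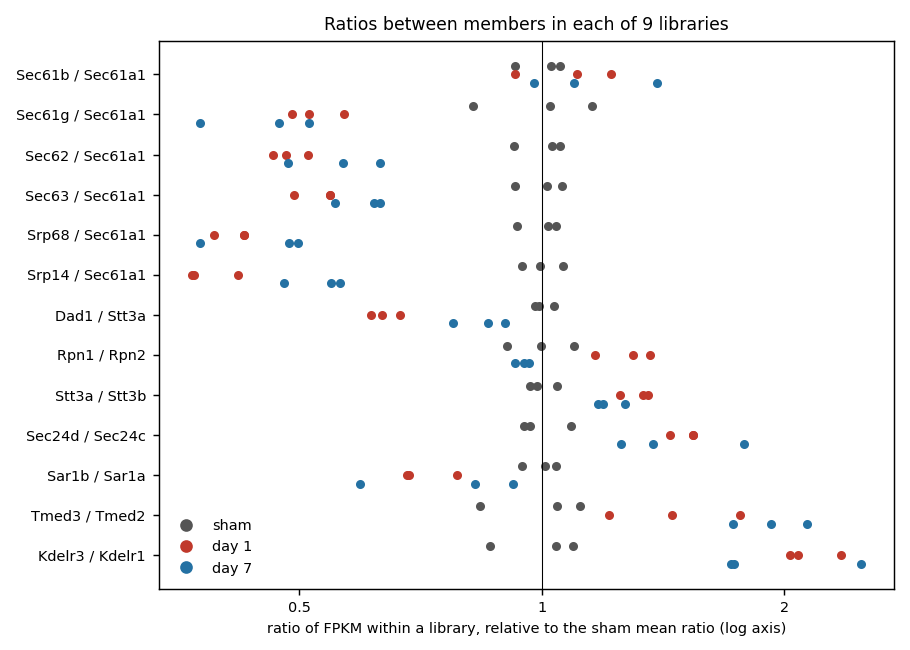
Ratios of FPKM between pairs of genes within each library, divided by the mean ratio in sham (horizontal log axis), for sham (grey), day 1 (red) and day 7 (blue). Points left of 1 mean that the first gene lost ground to the second: the ratios to Sec61a1 lie there for Sec61g, Sec62, Sec63, Srp68 and Srp14 at both times, and those for Sec61b straddle 1.

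The direct comparison of day 7 with day 1 asks which genes differed between the early and the later heart. Of the 49 genes, 0 were higher and 2 lower at day 7 by limma, beside 2.71% higher and 2.14% lower among all genes tested. At an unadjusted p under 0.05, 1 was higher and 19 were lower, beside 11.4% higher and 11.8% lower among all genes tested, and the count of higher genes was 0 under each of the 24 alternatives. The median of the 49 genes was -0.16, against -0.01 over all genes tested. The 2 genes called were Rpn1 (log2 fold change -0.67, SE 0.10, adjusted p = 0.0158) and Sec61g (-0.53, SE 0.12, adjusted p = 0.0488), and in both the day 7 libraries lay below the day 1 libraries. The Rpn1 call was lost without day 1 replicate 2 or day 7 replicate 3 (adjusted p of up to 0.0617), and the Sec61g call was lost in 8 of 9 fits with 1 library left out, the exception being sham replicate 2 (adjusted p of up to 0.134). For Spcs2, Ostc and Ssr3 the differences of -0.42, -0.43 and -0.36 missed the threshold (adjusted p = 0.0517, 0.0572 and 0.0613).

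Other genes of the same steps were taken from lists set by role. Tram2, a relative of Tram1 known for a part in collagen synthesis, was at 3.17, 3.77 and 3.39 FPKM in the sham group, 6.57, 6.33 and 7.22 on day 1 and 10.1, 6.45 and 6.97 on day 7. It rose at both times (0.80 and 0.97, adjusted p = 0.00709 and 0.004), and it was the 1 of 4 other targeting and translocation genes to pass among those tested. Of 5 other oligosaccharyltransferase subunits, 2 rose at day 1, namely Magt1 (0.38) of the Stt3b complex and Krtcap2 (0.36), and 1 rose at day 7, Tusc3 (0.27). Magt1 then fell from day 1 to day 7 (-0.53, adjusted p = 0.0143), as Rpn1 did. Of 16 other COPII and exit site genes tested, 2 rose and 2 fell at day 1, shares close to those over all genes. Sec31b, the paralogue of Sec31a, was among those that fell (-0.58, adjusted p = 0.0361), and Yipf5 (0.56, adjusted p = 0.0183) among those that rose. Of 15 other cargo receptors tested, 0 rose by limma (1 at an unadjusted p under 0.05) and 2 fell at day 1, Tmed4 (-0.66, adjusted p = 0.00316) and Tmed1 (-0.30), so the p24 family held genes in both directions. Without the 2 libraries with airway markers 0 genes of these 4 lists passed at day 1 in either direction, at medians of 0.11, 0.25, 0.05 and 0 against 0.13, 0.23, 0.06 and 0.02 with all libraries.

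Of 5 tested transcription factors known to raise secretory genes, 2 were called lower at day 7 than at day 1, beside 2.14% of all genes tested. These were Creb3l1 and, close to the threshold, Xbp1 (-0.41, adjusted p = 0.0487). The values are RNA levels, and the activity of the factors was not measured. Creb3l1, a membrane-bound factor known for collagen secretion in bone, was at 4, 4.73 and 4.45 FPKM in the sham group, 15.5, 17.8 and 16.6 on day 1 and 8.37, 8.37 and 6.61 on day 7. It rose by 1.71 (SE 0.10, adjusted p = 0.000545) and 0.70 (SE 0.10, adjusted p = 0.00412) and fell from day 1 to day 7 (-1.01, adjusted p = 0.00309). Xbp1 was at 41, 39.2 and 38.4 FPKM in the sham group, 51.1, 52.8 and 56.4 on day 1 and 44.8, 39.8 and 35.7 on day 7, and passed at day 1 (0.43, SE 0.10, adjusted p = 0.0149) and not at day 7. Of the 7 factors listed, Creb3l3 and Creb3l4 were too low to be tested. Of the 5 tested, 2 rose at day 1, and 2 rose and 1, Atf6, fell at day 7 (-0.46, adjusted p = 0.0126). Among all genes tested 13.4% rose at day 1, and 15.7% rose and 17.3% fell at day 7. Without the 2 libraries with airway markers, 1 of the 5 rose at day 1, and 1 rose and 1 fell at day 7.

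Collagens, the ER proteins that modify and fold them and 3 other matrix proteins made by fibroblasts (Fn1, Sparc and Postn) stand for the cargo of this pathway in a healing heart. This list shares genes with the activated fibroblast markers above, so the changes of both lists are not separate results. Of the 18 genes of this list 13 rose at day 1, beside 13.4% of all genes tested, and 15 at day 7, beside 15.7%. Their medians were 1.09 and 1.44. From day 1 to day 7, 7 were called higher, namely Col1a1, Col1a2, Col5a1, Col5a2, Fn1, Sparc and Postn, beside 2.71% of all genes tested. Col3a1 missed the threshold (1.16, adjusted p = 0.081). None of the 10 modifying and folding genes was called, but they were split. In Plod2 (0.80, adjusted p = 0.0824), Crtap (0.42) and Fkbp10 (0.32) the day 7 libraries lay above the day 1 libraries. Serpinh1, P4ha1, P4ha2, P4hb and Plod3 had differences below 0. The contrast of cargo with folding genes was not tested. Col1a1 was at 50.1, 46.1 and 77.7 FPKM in the sham group, 256, 285 and 218 on day 1 and 1050, 747 and 668 on day 7. Without the 2 libraries with airway markers 3 of the 18 genes passed as higher at day 1, with a median of 1.05. Then 14 passed at day 7, with a median of 1.46, and 0 from day 1 to day 7, with a median of 0.60 against 0.61 with all libraries.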

How the data were processed

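The deposited table gives FPKM per transcript for 9 libraries. Per the submitters' processing notes, the authors used FastQC 0.11.9, HISAT2 2.1.0 and HTSeq 0.11.2 on build GRCm39. The annotation release and strand handling are absent from the sources used here. The deposited FPKM values are not counts and do not show the sequencing depth. FPKM of the 55361 transcript entries was summed per gene, where the design had assumed 1 value per gene. Genes with a mean of 1 FPKM or more over the 9 libraries (13514) entered limma 3.58.1 (R 4.3.3) as log2(FPKM + 1), with a variance trend, 1 mean per group and a shared spread. Tests were two-sided, p-values were adjusted by Benjamini-Hochberg over the genes tested, and calls needed an adjusted p under 0.05. The log2(FPKM + 1) scale understates changes of low genes. With 3 libraries against 3 the smallest exact two-sided permutation p is 0.1, so none is given. The procedure was tested on simulated data with independent noise for each gene and library. That simulation does not cover deviations that many genes of a library share.

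The members and gene lists were chosen with earlier results of these data known. Values per library are given for the 8 largest called changes per comparison, for the paralogue sets and for the 3 smallest differences at day 7, and for further genes chosen after their values were seen. The lists name up to 4 called genes each. Alternatives covered the pseudocount (0.1), the filter, scaling, limma settings, the replicate block, the most expressed transcript and left-out libraries, and are reported in the closing section. Of the 49 members, 12 share a stretch of at least 200 bases at 95% identity or more with another gene, and 16 have exons that overlap a neighbour, 2 with a neighbour of equal strand (GENCODE M21, GRCm38).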

Additional observations from a re-analysis of the deposited data

Results flagged for a closer look

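In 2 of the 49 genes, Rpn1 and Sec61g, the changes at the 2 times after AMI differed by the direct limma test of day 7 against day 1. Among all genes tested, 2.71% were called higher and 2.14% lower in that test. For Rpn1, the log2 change at day 7 minus that at day 1 was -0.67: its RNA rose at day 1 and overlapped sham at day 7. For Sec61g this difference was -0.53, with no call at day 1 and a fall at day 7. In both genes the day 7 libraries lay below the day 1 libraries. With 1 library left out in turn, the Rpn1 call was kept in 7 of 9 fits and the Sec61g call in 1 of 9.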

How the results depend on the processing

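No member's called change turned its sign in any of the 24 alternatives. The 24 rises at day 1 were 39 with TPM without mitochondrial genes and 4 without the pair of sham replicate 1 and day 1 replicate 2, and 17 to 24 with 1 library left out. The 2 falls at day 1 were 1 with quantile normalisation, either TPM scale, robust limma, a fit of 2 groups, the most expressed transcript or without day 7 replicates 1 and 2, 7 with array weights and 0 without the airway pair, and 1 to 4 with 1 library left out. The 12 rises at day 7 were 20 with quantile normalisation, 27 with either TPM scale, 5 without the airway pair and 1 without day 7 replicates 1 and 2, where the lone day 7 library is assumed to vary like the other groups, and 7 to 13 with 1 library left out. The 3 falls at day 7 were 0 with TPM, 1 without mitochondrial genes, 6 with array weights and 0 without day 7 replicates 1 and 2, and 2 to 5 with 1 library left out. The 2 genes lower at day 7 than at day 1 were 1 with a pseudocount of 0.1, no filter, robust limma or the most expressed transcript, 0 with TPM, 2 groups or either pair left out and 7 with array weights, and 0 to 3 with 1 library left out. With replicate number as a block, 20 rose and 1 fell at day 1, 8 rose and 2 fell at day 7 and 1 was lower at day 7 than at day 1. The correlations of the deviations of same-numbered libraries ran from -0.37 to 0.27. Sham replicate 1 correlated best with day 1 replicate 2 (0.40), the other library with airway markers, and sham replicate 2 with day 1 replicate 3 (0.40). Deviations within a group of 3 sum to 0, which constrains these correlations, so they do not decide whether libraries were paired. The smaller pairs of libraries test fewer samples. The unknown depth limits the low genes.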

Other observations

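Genes that feed or flank the same steps were looked at in further lists. Of 33 genes that build the dolichol-linked glycan, the donor for oligosaccharyltransferase, 9 rose and 2 fell at day 1 and 5 rose and 2 fell at day 7. Among all genes tested 13.4% rose and 14.7% fell at day 1 and 15.7% rose and 17.3% fell at day 7, so the share of rises at day 7 was near the background. Gmppb, which makes the mannose donor, rose most (0.79, SE 0.12, adjusted p = 0.00435), and Dpm1, which makes dolichol phosphate mannose, fell (-0.46, SE 0.09, adjusted p = 0.0105). Of 8 genes that trim glycans or check them, 6 rose at day 1. Calr, the lectin chaperone calreticulin, was at 185, 207 and 212 FPKM in the sham group, 336, 367 and 374 on day 1 and 236, 199 and 206 on day 7. It fell from day 1 to day 7 (-0.75, adjusted p = 0.0134), and so did its membrane-bound relative Canx (-0.52, adjusted p = 0.0224). Of 12 genes of the COPI coat, which carries the KDEL receptors back to the ER, 5 rose at day 1, with Arf4 (0.47), Copb1 (0.44) and Copz1 (0.41) among them. Without the 2 libraries with airway markers 0 of these calls at day 1 passed in each of the 3 lists, at medians of 0.24, 0.29 and 0.23 against 0.20, 0.33 and 0.21 with all libraries.

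Most of the insertion factors for membrane proteins went the other way in FPKM. Of 22 genes of the ER membrane complex (EMC), the GET pathway and the multipass translocon, 0 rose by limma at day 1 (0 at an unadjusted p under 0.05) and 8 fell, with a median of -0.26. Without the 2 libraries with airway markers 0 of the 22 passed as lower at day 1, with a median of -0.20, and 4 passed as lower at day 7 against 8 with all libraries. Emc2 was at 111, 110 and 112 FPKM in the sham group, 62.1, 60.7 and 76.3 on day 1 and 56, 73.2 and 66 on day 7, and Ccdc47 fell at both times (-0.50 and -0.79, adjusted p = 0.0103 and 0.00267). Emc10 was the 1 gene of the list called higher at day 7 (0.28, adjusted p = 0.0155). With TPM 1 of the 22 rose and 1 fell at day 1, and their median was -0.01 against 0.23 over all genes on that scale. At day 7, 2 rose and 2 fell with TPM. The cardiomyocyte marker FPKM fell over the same groups, and its part was not tested.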
